A study of Homo sapiens with 3 samples.

Results

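The genes described here are the human aminoacyl-tRNA synthetases, the enzymes that join each amino acid to its tRNA, together with the 3 scaffold proteins of the multisynthetase complex. They were chosen by symbol: 39 of the 50867 genes in the deposited table carry one of the listed names, of which 20 encode cytosolic enzymes, 16 encode mitochondrial enzymes (symbols ending in 2) and 3 encode the scaffold proteins AIMP1, AIMP2 and EEF1E1. The cells were UM-UC-3, a long-established line from a human bladder cancer, sequenced as 3 RNA libraries. The group shBLACAT2 (n = 2) holds 1 library for each of 2 short hairpin RNAs, shRNA 1 and shRNA 2, directed against the long non-coding RNA BLACAT2, and the group shControl (n = 1) holds 1 library made with a scramble hairpin. Each hairpin was represented by 1 stably selected line. All 3 lines shared a lentiviral infection and 2 weeks of puromycin selection, and polyA+ RNA was sequenced. The question put to these genes is how the RNA of each enzyme stood with each hairpin, and how the cytosolic enzymes compared with the mitochondrial ones.

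The cytosolic and the mitochondrial translation systems use largely separate sets of synthetases, and in human cells both sets are encoded in the nucleus. In the cytosol, a group of synthetases is held together with AIMP1, AIMP2 and EEF1E1 in the multisynthetase complex, while the others work outside it. Uncharged tRNA activates the kinase GCN2 (EIF2AK4), which phosphorylates eIF2 and favours translation of the transcription factor ATF4, and many genes of amino acid synthesis, transport and tRNA charging are known ATF4 targets. WARS, the tryptophanyl-tRNA synthetase, is in addition a known interferon-induced gene.

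Promoter windows from 250 bases before to 50 bases after a transcription start, from RefSeq on GRCh38.p14, were matched to 33 of the 39 genes, with 45 windows in all. The ATF4-C/EBP element, searched as TGATGNAA on both strands, was found for 7 of 16 cytosolic enzymes with a window (43.8%), 1 of 14 mitochondrial enzymes (7.14%) and 0 of 3 scaffold proteins, against 3.60% of 15842 protein-coding genes. The 7 cytosolic matches are printed because they are the sequence feature in which both enzyme sets differed most in these windows among the 4 motifs searched. Each is a 30-base stretch on the strand of the gene, with the match in capitals, and 6 of the 7 read as the reverse complement of the searched letters. The stretches lie at chr16:70289675-70289704 (minus strand, AARS), chr11:3057407-3057436 (minus strand, CARS), chr7:30594834-30594863 (plus strand, GARS), chr9:92293692-92293721 (minus strand, IARS), chr12:57488053-57488082 (plus strand, MARS), chr18:57621804-57621833 (minus strand, NARS) and chr5:33440956-33440985 (plus strand, TARS).
AARS: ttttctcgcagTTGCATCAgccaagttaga
CARS: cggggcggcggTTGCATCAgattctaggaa
GARS: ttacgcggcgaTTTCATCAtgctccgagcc
IARS: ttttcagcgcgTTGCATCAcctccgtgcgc
MARS: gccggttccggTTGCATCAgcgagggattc
NARS: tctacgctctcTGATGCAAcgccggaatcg
TARS: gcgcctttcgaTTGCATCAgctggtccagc

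An interferon element, searched on both strands as GAAA followed by any 2 bases and GAAA, was present in 1 of 16 cytosolic enzymes with a window, WARS, and in 1 of 14 mitochondrial enzymes, EARS2, against 4.16% of protein-coding genes. The WARS match is shown because WARS had the largest fold of all the synthetases. It lies at chr14:100375383-100375412 on the minus strand, in the second of the RefSeq windows of the gene, with its first base at position -55 from the start.
WARS: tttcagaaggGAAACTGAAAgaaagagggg

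Library totals ran from 16216947 to 17670199 counts, and 15132 genes were tested, those whose mean over the libraries reached 1 CPM (counts scaled to a common library size). The targeted transcript, listed as LINC00958, had 816 counts in the library labelled shRNA 1 and 1062 in the library labelled shRNA 2, against 938 in shControl, which are log2 folds of -0.44 and -0.01 (edgeR quasi-likelihood adjusted p = 0.913). The libraries labelled with a hairpin therefore did not show a lower count of the target beyond the spread between them, and shRNA 1 and shRNA 2 below name libraries by their labels. The keratin KRT7 had 20236, 13229 and 19944 counts in shRNA 1, shRNA 2 and shControl, and the epithelial list summed to 3331, 2204 and 3130 CPM, with KRT20 at 0 throughout. The sum is carried by keratins, and the median log2 fold of the 9 epithelial genes tested was 0.80 with shRNA 1 and 0.28 with shRNA 2. With shRNA 2, 5 of the 9 lay above shControl. The largest difference of the list was that of the keratin KRT5, which was lower with shRNA 2. It had 368, 98.9 and 368 CPM in shRNA 1, shRNA 2 and shControl, a log2 fold of -1.90 with shRNA 2. CDH1, the epithelial cadherin, had 290 and 264 CPM with the hairpins and 124 CPM in shControl, and UPK2, a uroplakin, had 6.01 and 6.03 CPM with the hairpins and 2.31 CPM in shControl. Of other cell types, the 6 leukocyte markers summed to 130, 148 and 132 CPM, mostly from CD74 at 128, 130 and 129 CPM, with PTPRC at 3, 4 and 0 counts. ITGAM, a myeloid integrin, had 6 counts with shRNA 1 and 288 with shRNA 2, against 19 in shControl. The 4 endothelial markers summed to 3.28, 7.18 and 2.44 CPM in shRNA 1, shRNA 2 and shControl, with CDH5 at 42, 66 and 18 counts and KDR at 4, 41 and 13. The 5 fibroblast markers summed to 18.4 and 9.56 CPM with the hairpins and 349 CPM in shControl, where COL1A1 had 5253 counts and DCN 2. The part of these other cell types in the results was not tested.

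The largest differences were among the cytosolic enzymes that work outside the multisynthetase complex, in the shRNA 2 library. Of these 12 enzymes, 0 reached a level 2-fold above shControl in the shRNA 1 library and 6 did in the shRNA 2 library (WARS, GARS, YARS, AARS, CARS and SARS). Among all genes tested, 7.92% reached that size with shRNA 1, 13.0% with shRNA 2 and 5.29% with both hairpins. None of the 12 was at least 2-fold lower, where 7.38% of all genes were with shRNA 1 and 8.76% with shRNA 2. The summed level of the 12 RNAs, in CPM scaled by edgeR's TMM factors, was 2023 with shRNA 1 and 3975 with shRNA 2, against 1810 in shControl, a ratio of 2.20 for shRNA 2. In bulk RNA, a difference in the share of cells that carry an RNA and a difference in the RNA per cell cannot be told apart.

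WARS, on chromosome 14 at 100333788 to 100376805 (hg38, as the other positions of genes), had 194 CPM with shRNA 1 and 800.5 CPM with shRNA 2, against 109 CPM in shControl. Both hairpin libraries were above shControl and lay far apart from each other, with shRNA 2 at 4.13 times shRNA 1 (95% counting interval 3.98 to 4.29). The ratio to shControl was 1.77 with shRNA 1 (1.67 to 1.88) and 7.32 with shRNA 2 (6.95 to 7.70). These intervals are exact conditional binomial intervals and cover counting error only. On the log2 scale the folds were 0.82 and 2.87, a mean of 1.85 ± 1.45 (SD, n = 2), and WARS ranked 219th of 15132 genes by its fold with shRNA 2. Without WARS, the summed level of the other 19 cytosolic enzymes was 3749 CPM with shRNA 1 and 5424.5 CPM with shRNA 2, against 3579 CPM in shControl.

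GARS, the glycyl-tRNA synthetase, which serves both the cytosol and mitochondria, had 237 CPM with shRNA 1 and 608 CPM with shRNA 2, against 199 CPM in shControl. YARS, for tyrosine, had 151 and 381 CPM in the hairpin libraries, against 137 CPM in shControl. AARS, for alanine, had 316 and 747 CPM, against 298 CPM in shControl. For all 3 genes the shRNA 1 library was at most 1.19 times shControl and the shRNA 2 library stood apart, with ratios of 3.06 (GARS, 2.94 to 3.19), 2.78 (YARS, 2.65 to 2.93) and 2.50 (AARS, 2.42 to 2.59) for shRNA 2. SARS, for serine, had 156 CPM with shRNA 1 and 363 CPM with shRNA 2, against 178 CPM in shControl, so that only the shRNA 2 library lay above shControl. Its log2 fold of 1.03 with shRNA 2 lay close to the threshold of 1 and was 0.995 with DESeq2's size factors and 0.97 with no filter on low counts.

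CARS, for cysteine, had 70.3 CPM with shRNA 1 and 104 CPM with shRNA 2, against 43.8 CPM in shControl. Both hairpin libraries lay above shControl, with ratios of 1.60 (1.46 to 1.76) and 2.38 (2.17 to 2.60), and the log2 folds averaged 0.96 ± 0.40 (SD, n = 2). FARSB, NARS and TARS lay above shControl in both hairpin libraries, each by less than 2-fold. FARSB, the beta subunit of the phenylalanyl-tRNA synthetase, had 80.2 and 97.2 CPM with shRNA 1 and shRNA 2, against 63.3 CPM in shControl, while its partner subunit FARSA had 103, 108 and 108 CPM in that order. The ratio of FARSB to FARSA in FPKM, a level per length, was 1.34 and 1.55 in the hairpin libraries and 1.01 in shControl. NARS, for asparagine, had log2 folds of 0.30 and 0.49, and TARS, for threonine, 0.22 and 0.49.

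Not all enzymes outside the complex were higher with shRNA 2. HARS, for histidine, had 132 CPM with shRNA 1 and 87.1 CPM with shRNA 2, against 161 CPM in shControl, and was below shControl in both hairpin libraries, with log2 folds of -0.29 and -0.88. VARS, for valine, had 54.4 and 57.0 CPM with the hairpins and 71.2 CPM in shControl, with log2 folds of -0.39 and -0.32. HARS shares 437 exonic bases with HARS2 on the opposite strand and YARS shares 396 with S100PBP. Since the sources used here do not state whether counting used strand, such genes may share reads. S100PBP had 1086, 1051 and 977 counts in shRNA 1, shRNA 2 and shControl, and WDR25, which shares 287 exonic bases with WARS, had 89, 188 and 99 counts, against 3478, 13816 and 1661 for WARS.

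**Figure D1:**
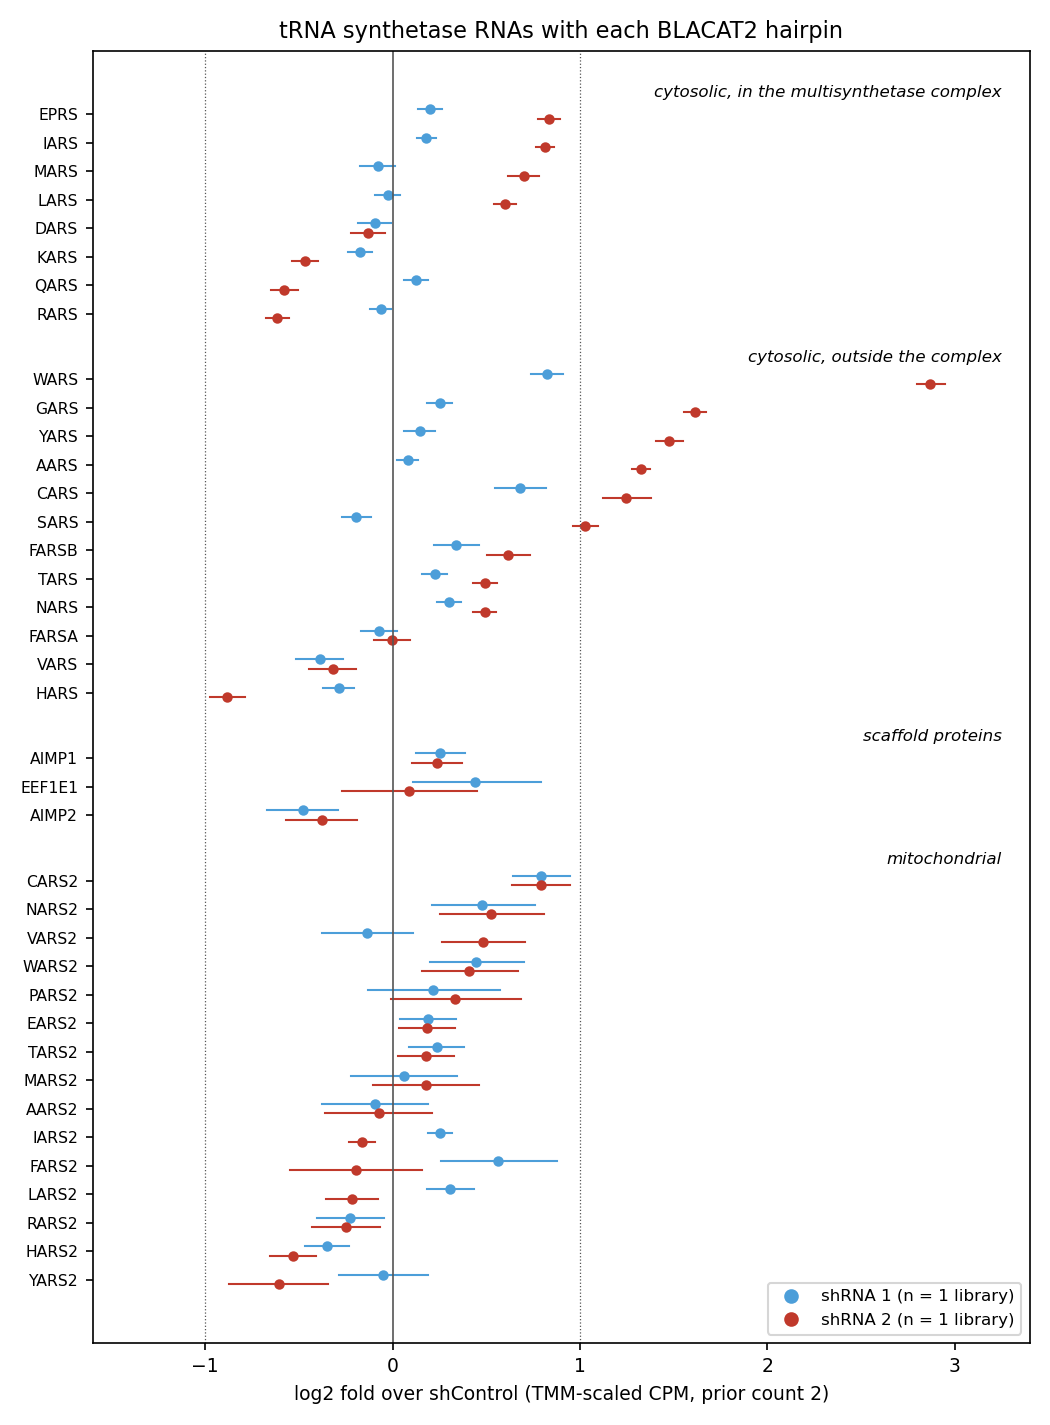
Log2 fold over shControl of the 38 tested genes (x axis, TMM-scaled CPM with a prior count of 2) with shRNA 1 and shRNA 2, grouped by role; points are single libraries, bars are 95% counting intervals of the ratio, and dotted lines mark 2-fold. With shRNA 2, WARS, GARS, YARS, AARS, CARS and SARS lie beyond the upper line, and no mitochondrial enzyme does.

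The 8 enzymes that belong to the multisynthetase complex split in direction with shRNA 2. None was at least 2-fold higher or lower with either hairpin. Of all genes tested, 7.92% were at least 2-fold higher and 7.38% lower with shRNA 1, and 13.0% and 8.76% with shRNA 2. The median log2 fold of the 8 enzymes was -0.05 with shRNA 1 and 0.23 with shRNA 2, beside 0.01 and 0.04 for all genes tested. EPRS, the bifunctional enzyme for glutamate and proline, had 276 CPM with shRNA 1 and 429 CPM with shRNA 2, against 241 CPM in shControl. IARS, for isoleucine, had 384 and 596 CPM, against 339 CPM in shControl. These were log2 folds of 0.83 and 0.81 with shRNA 2, and both libraries lay above shControl. LARS, for leucine, had 233 and 359 CPM, against 237 CPM in shControl, and MARS, for methionine, had 114 and 196 CPM, against 121 CPM in shControl. For this pair shRNA 1 lay at or below shControl and shRNA 2 above it, with log2 folds of 0.60 and 0.70. MARS shares 355 exonic bases with DDIT3 on the opposite strand, a gene that had 68 and 300 counts with the hairpins and 49 in shControl, against 2050, 3384 and 1831 for MARS.

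The other 4 enzymes of the complex had lower values with shRNA 2. RARS, for arginine, had 295 CPM with shRNA 1 and 202 CPM with shRNA 2, against 309 CPM in shControl. QARS, for glutamine, had 266 and 164 CPM, against 244 CPM in shControl, and KARS, for lysine, which also serves mitochondria, had 229 and 187 CPM, against 258 CPM in shControl. The log2 folds with shRNA 2 were -0.61 for RARS, -0.58 for QARS and -0.47 for KARS, and their counting intervals did not include a ratio of 1. DARS, for aspartate, had 122, 119 and 130 CPM in shRNA 1, shRNA 2 and shControl, the narrowest range of the 8. Summed over the 8 enzymes, the level was 1919 CPM with shRNA 1 and 2250 CPM with shRNA 2, against 1878 CPM in shControl.

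Among the scaffold proteins, AIMP1 had 64.7 and 63.8 CPM in the hairpin libraries and 54.2 CPM in shControl, with log2 folds of 0.25 and 0.24. AIMP2, which holds the complex together, had 23.7 and 25.4 CPM with the hairpins and 33.0 CPM in shControl, with log2 folds of -0.48 and -0.38. EEF1E1 had 10.7, 8.34 and 7.84 CPM in shRNA 1, shRNA 2 and shControl. The 3 scaffold RNAs thus stood on different sides of shControl, and their sum was 99.0, 97.6 and 95.1 CPM in the same order. AIMP2 shares 532 exonic bases, 28.9% of its exonic length, with EIF2AK1 on the opposite strand, which had 4311, 3430 and 3167 counts, against 425, 438 and 501 for AIMP2. AIMP1 shares 387 exonic bases with TBCK on the opposite strand. TBCK had 356, 289 and 132 counts in shRNA 1, shRNA 2 and shControl, against 1162, 1102 and 823 for AIMP1.

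**Figure D2:**
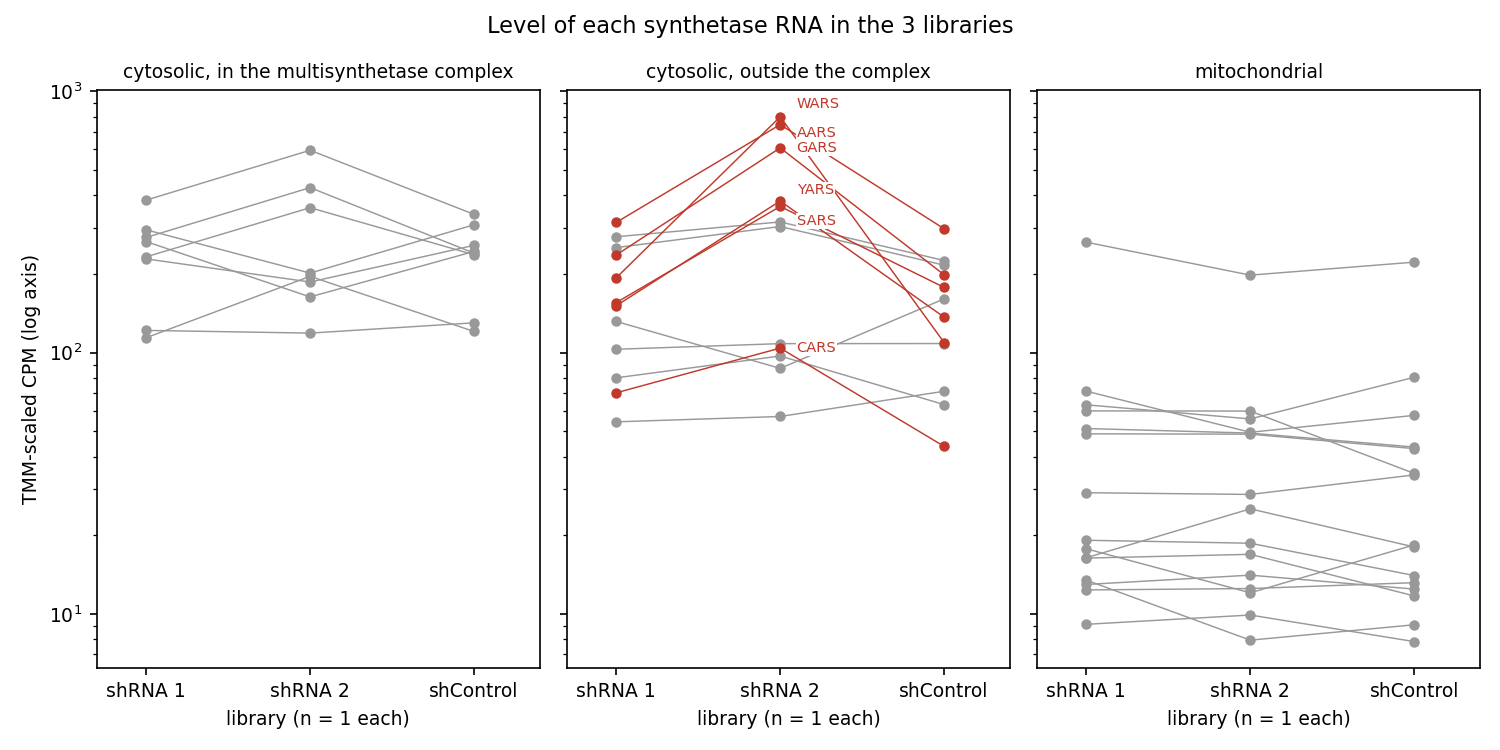
TMM-scaled CPM (y axis, log scale) of each tested synthetase in the libraries shRNA 1, shRNA 2 and shControl (x axis, n = 1 each), with lines joining the values of 1 gene; red marks the 6 enzymes at least 2-fold higher with shRNA 2. SARS2, at 0.946, 0.753 and 0.132 CPM, was under the expression filter and is not drawn.

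None of the 15 mitochondrial enzymes tested was at least 2-fold higher or lower with either hairpin. Of all genes tested, 7.92% were at least 2-fold higher and 7.38% lower with shRNA 1, and 13.0% and 8.76% with shRNA 2. At those shares few of 15 genes would be counted. The median log2 fold of the 20 cytosolic enzymes was 0.10 with shRNA 1 and 0.61 with shRNA 2, and that of the mitochondrial enzymes was 0.22 and 0.18. With shRNA 2 the mitochondrial median was 0.12 without a filter on low counts, 0.38 with library totals as the scaling and -0.18 over the 8 enzymes whose exons overlap no other gene, so no direction is given for it. Summed over all 20, the cytosolic enzymes stood at 3942 CPM with shRNA 1 and 6225 CPM with shRNA 2, against 3689 CPM in shControl. The 16 mitochondrial enzymes summed to 707 and 608 CPM with the hairpins and 620 CPM in shControl. As a share of all counts in shRNA 1, shRNA 2 and shControl this was 0.401%, 0.663% and 0.341% for the cytosolic set and 0.0719%, 0.0647% and 0.0573% for the mitochondrial set. The cytosolic sum was thus highest with shRNA 2, and the mitochondrial sum with shRNA 1. Of the mitochondrial sum, IARS2 alone held 265, 198 and 222 CPM in shRNA 1, shRNA 2 and shControl, and LARS2 71.3, 49.6 and 57.6 CPM. The order of the sum thus rests largely on these genes. Genes of the mitochondrial genome took 4.58% of counts with shRNA 1 and 2.51% with shRNA 2, against 3.88% in shControl. The part of that difference in the values of the mitochondrial enzymes was not tested.

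Of the 15 mitochondrial enzymes tested, CARS2, for cysteine, had the highest log2 fold with each hairpin. Its level was 59.9 CPM with shRNA 1 and 59.8 CPM with shRNA 2, against 34.5 CPM in shControl, with ratios of 1.74 (1.56 to 1.93) and 1.73 (1.56 to 1.93). Both hairpin libraries lay above shControl and next to each other, with a mean log2 fold of 0.79. NARS2, for asparagine, had 16.4 and 16.9 CPM with the hairpins and 11.7 CPM in shControl, and WARS2, for tryptophan, had log2 folds of 0.45 and 0.41. Their counting intervals lay above a ratio of 1 with both hairpins, as did those of EARS2 (glutamate) and TARS2 (threonine), which had log2 folds between 0.18 and 0.24. CARS2 shares 326 exonic bases with ING1 on the opposite strand, which had 438 and 324 counts with the hairpins and 400 in shControl, against 1076, 1032 and 524 for CARS2. EARS2 shares 370 with UBFD1 on the opposite strand. UBFD1 had 1644 and 1495 counts with the hairpins and 1307 in shControl, against 879, 842 and 652 for EARS2.

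HARS2, for histidine, and RARS2, for arginine, lay below shControl in both hairpin libraries. HARS2 had 63.2 and 55.8 CPM with the hairpins and 80.6 CPM in shControl, and RARS2 had 29.1, 28.7 and 34.1 CPM in shRNA 1, shRNA 2 and shControl. IARS2, for isoleucine and the most abundant of the set, had 265 CPM with shRNA 1 and 198 CPM with shRNA 2, against 222 CPM in shControl. LARS2, for leucine, had 71.3 and 49.6 CPM with the hairpins and 57.6 CPM in shControl, so that for both genes shRNA 1 lay above shControl and shRNA 2 below it. FARS2, for phenylalanine, had log2 folds of 0.56 and -0.19, and VARS2, for valine, -0.14 and 0.48. YARS2, for tyrosine, had 17.8 CPM with shRNA 1 and 12.1 CPM with shRNA 2, against 18.4 CPM in shControl. AARS2, MARS2 and PARS2, for alanine, methionine and proline, had counting intervals that included a ratio of 1 with both hairpins.

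SARS2, the mitochondrial enzyme for serine, was the single member under the expression filter. It had 17 counts with shRNA 1 and 13 with shRNA 2, against 2 in shControl. Of its exonic length, 46.2% is shared with CTC-360G5.8, an overlapping gene on the same strand that had 0 counts in each library. A further 349 exonic bases, 10.8%, are shared with MRPS12 on the opposite strand. MRPS12 had 618, 543 and 487 counts in shRNA 1, shRNA 2 and shControl, so shared reads could make up the few counts of SARS2, which was not tested. The ratio to shControl was 7.18 with shRNA 1 (1.71 to 64.1) and 5.72 with shRNA 2 (1.29 to 52.2), intervals too wide to fix its size.

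The cytosolic and the mitochondrial enzyme for the same amino acid could be set side by side for 15 of 16 pairs, where EPRS stands in 2 pairs and serine lacks a tested partner. With shRNA 2 the cytosolic log2 fold was above the mitochondrial one in 11 of 15 pairs, with a median difference of 0.50. With shRNA 1 it was above in 6 of 15, with a median difference of -0.02. The widest gaps with shRNA 2 were those of tryptophan (2.46), tyrosine (2.08), alanine (1.40) and isoleucine (0.98). Asparagine (-0.03), histidine (-0.35), arginine (-0.37) and valine (-0.80) had the mitochondrial enzyme higher. For cysteine both enzymes lay above shControl with both hairpins, at log2 folds of 0.68 and 1.25 for CARS and 0.79 and 0.79 for CARS2. For histidine both lay below shControl with both hairpins. The libraries share 1 control, so the values of the hairpins are not independent of each other.

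**Figure D3:**
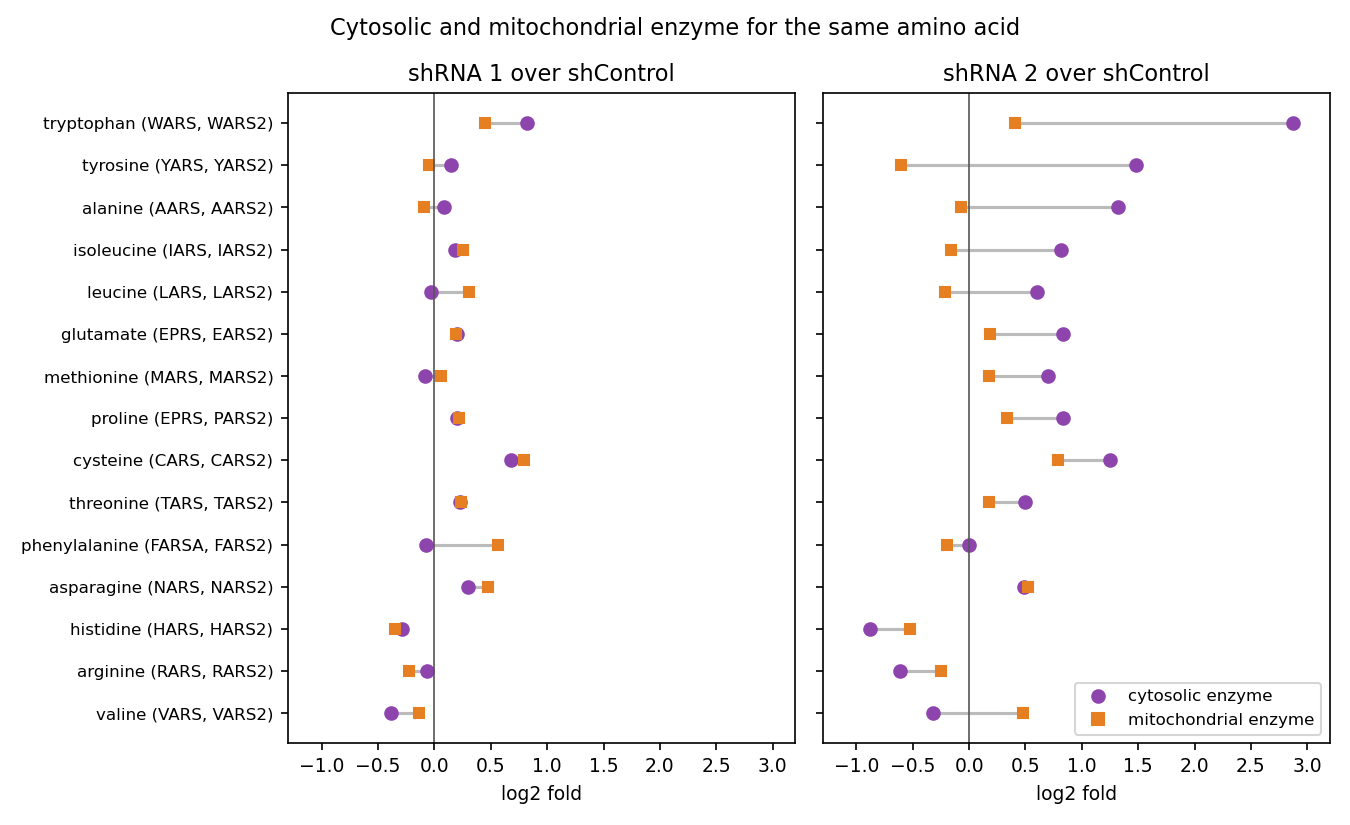
Log2 fold over shControl (x axis) of the cytosolic and the mitochondrial enzyme for each of 15 amino acids (y axis), with shRNA 1 in the left panel and shRNA 2 in the right panel, 1 library each. With shRNA 2 the cytosolic point is the higher one in 11 of 15 pairs, and with shRNA 1 in 6 of 15.

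The difference between the hairpin libraries does not involve shControl. With shRNA 2, 15 of 20 cytosolic enzymes were higher than with shRNA 1, against 5 of 15 mitochondrial enzymes and 50.3% of all genes tested. At least 2-fold were WARS (log2 difference 2.05), GARS (1.36), YARS (1.33), AARS (1.24) and SARS (1.22), which is 5 of 20 cytosolic enzymes, where 8.35% of all genes reached that size. No member was at least 2-fold lower with shRNA 2 than with shRNA 1, where 4.48% of all genes were, and no mitochondrial enzyme was 2-fold higher. Counting intervals of the ratio of shRNA 2 to shRNA 1 lay above 1 for 13 and below 1 for 4 cytosolic enzymes, and above 1 for 1 and below 1 for 5 mitochondrial enzymes. These intervals widen as counts fall, and the lowest shControl count was 665 among cytosolic and 119 among tested mitochondrial enzymes. The numbers of intervals that exclude 1 are therefore not comparable between the sets, and their share over all genes was not computed. Each hairpin is 1 library, so this difference has no replicate check.

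In the test of both shBLACAT2 libraries against shControl, 0 of 38 members passed edgeR's quasi-likelihood test at a Benjamini-Hochberg adjusted p below 0.05, where 0.0397% of all genes passed. CARS and CARS2 were the 2 members with an unadjusted p below 0.05, where 10.2% of all genes were, with an edgeR adjusted p of 0.482 each. WARS had a fitted log2 fold of 2.18 (SE 0.91, edgeR adjusted p = 0.510). With DESeq2's Wald test, 1 of 38 members passed, WARS, with a log2 fold of 2.15 (SE 0.65, DESeq2 adjusted p = 0.0297), where 3.51% of all genes passed. The edgeR test has 1 residual degree of freedom, taken from the spread between the hairpin libraries. These libraries differ in hairpin and in selected line, and technical scatter adds to that, so the parts of the spread cannot be told apart. Separate cultures of 1 line are not mentioned in the labels, so a p-value here reflects only how these 3 libraries scatter.

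Levels between genes were compared per length, as the authors' FPKM values. RARS was the highest member in shControl, at 55.1 FPKM, and had 58.0 FPKM with shRNA 1 and 41.5 FPKM with shRNA 2. AARS was the highest with shRNA 2, at 137 FPKM, followed by GARS at 99.9 FPKM. WARS had 10.1 FPKM with shRNA 1 and 43.8 FPKM with shRNA 2, against 5.19 FPKM in shControl. IARS2, the highest mitochondrial enzyme, had 57.9 and 45.4 FPKM with the hairpins and 44.2 FPKM in shControl, within the range of the cytosolic enzymes. The length behind FPKM equals the sum of all distinct annotated exons to within 1% for 86.7% of genes checked, which for the members is 1.00 to 12.3 times the longest coding transcript. Per kilobase of the longest coding transcript, WARS took place 1 among the members with shRNA 2 in place of 7 by FPKM, so the order of levels depends on the length used.

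The 7 cytosolic genes with an ATF4-C/EBP element had log2 folds with shRNA 2 between 0.49 (NARS) and 1.61 (GARS), with a median of 0.81, and 3 of them (GARS, AARS and CARS) were at least 2-fold higher. The 9 cytosolic genes whose windows held no match had a median of -0.00, between -0.88 (HARS) and 2.87 (WARS), and 2 of them (WARS and SARS) were at least 2-fold higher. With shRNA 1 the medians were 0.22 with the element and -0.06 without it. No window was at hand for DARS, LARS, VARS and YARS, which had log2 folds between -0.32 and 1.48 with shRNA 2. The first base of the match lay at position -187 from the start in AARS and between -33 and 15 in the other 6 genes. The element was present in 2 of 6 enzymes of the complex with a window, IARS and MARS, and 5 of 10 outside it. Of the gene lists described below, the same letters stood in 5 of 9 amino acid transport genes with a window and 3 of 8 interferon-stimulated genes. They stood in 2 of 10 amino acid synthesis genes and 2 of 8 ATF4 pathway factors. In each list of tRNA handling, translation and eIF2 the share was at most 7.69%. A match describes the letters of the window, and binding was not measured.

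The E-box, searched as CACGTG on both strands, stood in the windows of 1 of 16 cytosolic enzymes and 3 of 14 mitochondrial enzymes, against 10.9% of protein-coding genes. The NRF1 element, searched on both strands as GCGCA followed by any base and GCGC, stood in 3 of 16 cytosolic and 3 of 14 mitochondrial enzymes, against 9.66% of protein-coding genes. The mitochondrial enzyme with an ATF4-C/EBP match was YARS2, whose log2 folds were -0.05 and -0.60. CARS2, which had the highest folds of the 15 mitochondrial enzymes tested, had an E-box and no ATF4-C/EBP match.

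**Figure D4:**
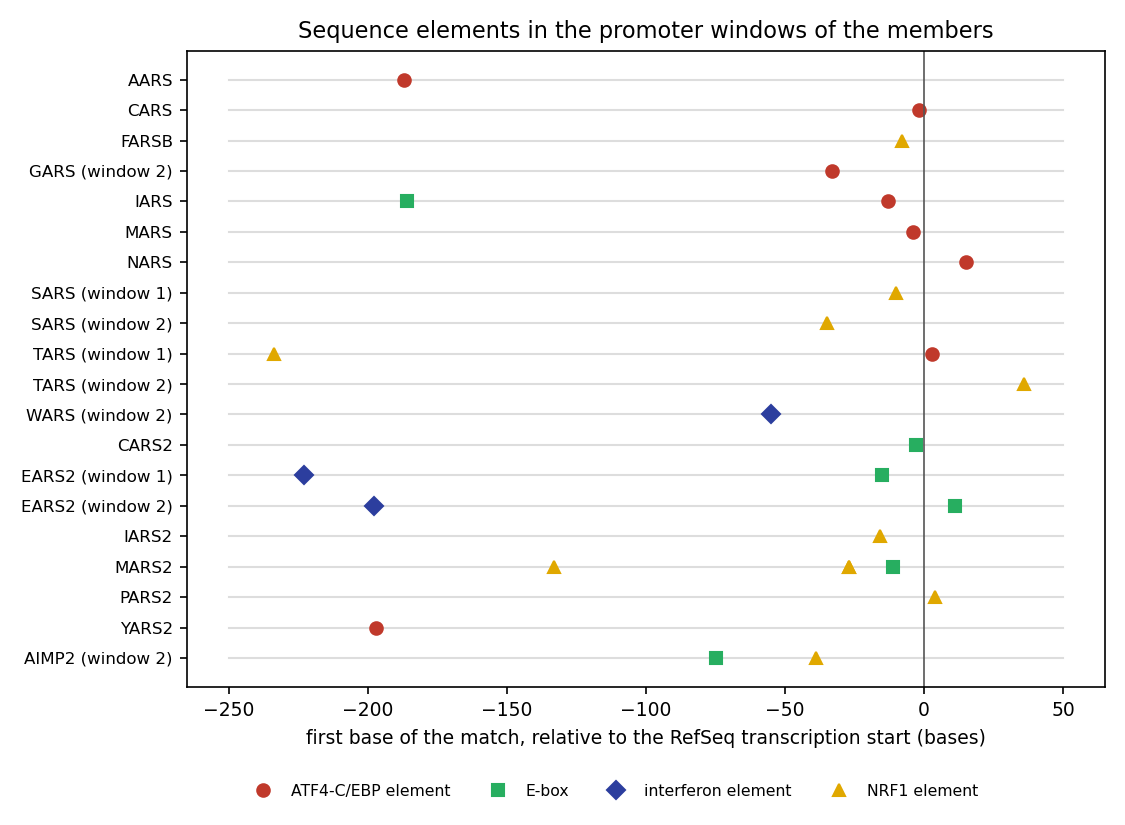
Position of the first base of each motif match relative to the RefSeq transcription start (x axis, bases) for members with at least 1 match (y axis), with grey lines for the window searched and symbols for the motif. ATF4-C/EBP matches lie within 33 bases of the start in 6 of 7 cytosolic genes, and the interferon element of WARS lies at -55.

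Other steps of tRNA handling and translation were described from lists of genes. The shares of all genes tested at least 2-fold higher and lower were 7.92% and 7.38% with shRNA 1, and 13.0% and 8.76% with shRNA 2. The 27 genes of tRNA processing and export had a median log2 fold of -0.04 in shRNA 1 and -0.33 in shRNA 2, and in the shRNA 2 library 1 of them was at least 2-fold higher (TSEN15) and 1 at least 2-fold lower (KIAA0391). TSEN15, a tRNA splicing endonuclease subunit, had 54.2 and 113 CPM with the hairpins and 53.0 CPM in shControl, and KIAA0391, a subunit of mitochondrial RNase P, had 7.46, 2.90 and 7.91 CPM in shRNA 1, shRNA 2 and shControl. XPOT, the export receptor that carries tRNA out of the nucleus, had 125 CPM with shRNA 1 and 252 CPM with shRNA 2, against 127 CPM in shControl, a log2 fold of 0.99 with shRNA 2 just under the threshold. DDX1, an RNA helicase of the tRNA ligase complex, had 275 and 227 CPM with the hairpins and 357 CPM in shControl. The 43 tRNA modification genes had medians of 0.16 and 0.15, with 1 at least 2-fold lower with shRNA 2 (TRDMT1, log2 fold -1.06), and NSUN2, a tRNA cytosine methyltransferase, had log2 folds of 0.17 and 0.17. The 3 tested genes of tRNA editing and hydrolysis had medians of -0.03 and 0.21, and the 4 mitochondrial charging helpers 0.27 and -0.04. Of these helpers, QRSL1, a subunit of the amidotransferase that makes glutaminyl-tRNA in mitochondria, had log2 folds of 0.50 and 0.59, and its partner GATB had -0.02 and -0.84.

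The elongation and mitochondrial translation lists had median log2 folds between -0.12 and 0.19. The median of the 8 genes tested of the cytosolic elongation list was 0.19 in shRNA 1 and 0.02 in shRNA 2, with EEF2, the translocation factor, at log2 folds of 0.13 and 0.30. The 8 included PSTK and SEPSECS, which are not elongation factors, and SEPSECS had the highest log2 folds of the list, 0.59 and 0.85. The 77 mitochondrial ribosomal proteins had medians of 0.11 and -0.12, with 1 at least 2-fold higher and 1 lower with shRNA 1 and 0 with shRNA 2, and the 10 mitochondrial translation factors had 0.12 and -0.03. In these lists and those of tRNA handling, 0 genes passed edgeR's test after adjustment or DESeq2's, and 0 had an unadjusted edgeR p below 0.05. Of all genes tested, 0.0397% passed edgeR's test, 3.51% passed DESeq2's and 10.2% had an unadjusted edgeR p below 0.05.

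The genes of the amino acid response also stood furthest from shControl in the shRNA 2 library. ATF4 itself had 449 CPM with shRNA 1 and 635 CPM with shRNA 2, against 281 CPM in shControl, and of 9 ATF4 pathway factors 0 reached 2 times the shControl level in shRNA 1 and 7 did in shRNA 2. TRIB3, a pseudokinase induced by ATF4, had 58.4 and 342 CPM with the hairpins and 43.0 CPM in shControl. The same size was reached by 3 of 15 amino acid synthesis genes in shRNA 1 and 11 in shRNA 2, and by 2 of 10 transporters in shRNA 1 and 6 in shRNA 2. Of all genes tested, 7.92% reached that size in shRNA 1 and 13.0% in shRNA 2, and 7.38% were at least 2-fold lower in shRNA 1. In each of these 3 lists, 1 gene was at least 2-fold lower with shRNA 1 and at least 2-fold higher with shRNA 2. NUPR1 had 3 and 91 counts with the hairpins and 11 in shControl, ALDH1L2 had 56, 1219 and 138 counts in shRNA 1, shRNA 2 and shControl, and SLC43A1 had 10, 187 and 23. ASNS, the asparagine synthetase, had 75.3 CPM with shRNA 1 and 502 CPM with shRNA 2, against 31.7 CPM in shControl, and CTH, which makes cysteine, had 62.8 and 109 CPM with the hairpins and 9.35 CPM in shControl. For both genes each hairpin library lay above shControl, as for SLC7A11, the cystine transporter, at 23.7, 164 and 5.86 CPM in shRNA 1, shRNA 2 and shControl. The list medians were 0.22 and 1.44 for the ATF4 factors, 0.58 and 1.79 for synthesis, and 0.41 and 1.78 for transport, which with shRNA 2 were above the 0.61 of the cytosolic synthetases.

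The list of eIF2, its exchange factor and its kinases, which also held GCN1, PPP1R15A and PPP1R15B, had 15 genes. Their median log2 folds were 0.00 with shRNA 1 and -0.05 with shRNA 2. With shRNA 1, 0 of the 15 were at least 2-fold higher, where 7.92% of all genes were. With shRNA 2 it was 2, EIF2AK2 and PPP1R15A, where 13.0% of all genes were. PPP1R15A had 781 and 4115 counts with the hairpins and 1042 in shControl, log2 folds of -0.66 and 1.79. Of the kinases that phosphorylate eIF2, EIF2AK2, the double-stranded RNA sensor PKR, had 272 CPM with shRNA 1 and 541 CPM with shRNA 2, against 230 CPM in shControl. EIF2AK4, the sensor of uncharged tRNA, had 62.0 and 57.6 CPM with the hairpins and 61.9 CPM in shControl. EIF2AK2 was thus higher in the shRNA 2 library at a log2 fold of 1.23, and EIF2AK4 had log2 folds of 0.00 and -0.10. In the interferon list, 4 of 12 genes reached 2 times the shControl level in shRNA 1 and 11 did in shRNA 2, with list medians of 0.73 and 2.32. Of all genes tested, 7.92% and 13.0% reached it. RSAD2, an antiviral enzyme, had 53.5 CPM with shRNA 1 and 324 CPM with shRNA 2, against 17.4 CPM in shControl, and IFIT2 had 59.0 and 217 CPM with the hairpins and 25.1 CPM in shControl. IDO1, which degrades tryptophan, had 295 and 94 counts with the hairpins and 3 in shControl. Its ratio to shControl was 83.1 with shRNA 1 (28.2 to 405) and 27.6 with shRNA 2 (9.15 to 136), so that shRNA 1 and not shRNA 2 was the higher library. The part of the ATF4 and interferon genes in the levels of the synthetases was not tested. No gene of the ATF4, synthesis, transport and interferon lists passed edgeR's test after adjustment, while 1, 5, 2 and 6 of their genes had an unadjusted edgeR p below 0.05 and DESeq2 called 0, 2, 1 and 3. Of all genes tested, 10.2% had an unadjusted edgeR p below 0.05 and DESeq2 called 3.51%.

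**Figure D5:**
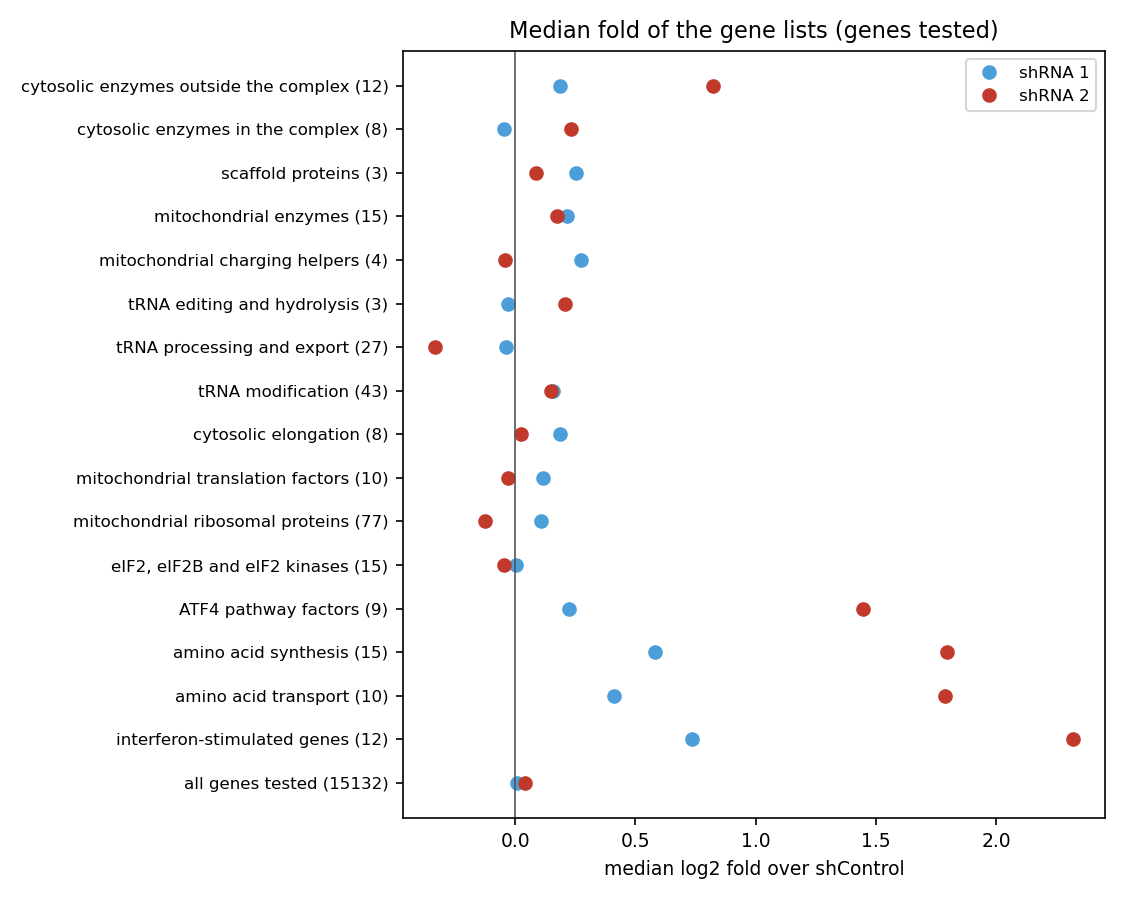
Median log2 fold over shControl (x axis) of each gene list (y axis, number of genes tested in brackets) with shRNA 1 and shRNA 2, 1 library each. The cytosolic enzymes outside the complex stand at 0.18 and 0.82, those in the complex at -0.05 and 0.23 and the mitochondrial enzymes at 0.22 and 0.18, beside 0.01 and 0.04 for all genes tested.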

How the data were processed

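PolyA+ RNA of 3 UM-UC-3 libraries, prepared with a stranded kit per the labels' protocols, was analysed from a deposited table holding the authors' raw counts and their FPKM for each gene and library. The submitters' processing notes name the aligner TopHat2 (2.0.9) and the build hg38. How reads were counted, with which strand setting and annotation, was not given in the sources used here. The deposited FPKM, per the file headers a deposited column, is a count per length and library total, and was used only for levels between genes. One gene, whose entry was broken over 4 lines, was left out.

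A mean of 1 CPM over the libraries was required (15132 genes), which held 38 of 39 members. Counts were scaled by TMM in edgeR 4.0.16 (R 4.3.3), with factors of 1.02 for shRNA 1, 1.06 for shRNA 2 and 0.924 for shControl. Log2 folds over shControl used log2 CPM with a prior count of 2, and a fold of at least 2 was counted for each hairpin. Both hairpin libraries were set against shControl with the quasi-likelihood test of edgeR, two-sided and adjusted by Benjamini-Hochberg over all tested genes, with DESeq2 1.42.0 as an alternative. The procedure was run on simulated counts in which both hairpin libraries carried equal folds. In the data, shRNA 2 was at least 2-fold above shRNA 1 for 8.35% of genes tested and below it for 4.48%. The simulated run therefore does not check the test under the spread of these libraries. Exonic overlaps were taken from GENCODE gene models and promoter windows from RefSeq (GRCh38.p14), matched by identifier and symbol.

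The members, the gene lists, the tests and the motifs were chosen with earlier results of these data known. All members are described. In each other list the rule picked up to 3 genes at least 2-fold different in the same direction with both hairpins, by the smaller of both folds, or else the 2 of highest mean CPM, and most of these are printed. EIF2AK4, TSEN15, KIAA0391, TRDMT1, NUPR1, ALDH1L2, SLC43A1, CTC-360G5.8 and the overlapping genes were named after their values were seen, as were KRT7, KRT20, KRT5, PTPRC and DCN among the markers. The same holds for GCN1, PPP1R15A, PPP1R15B, PSTK and SEPSECS.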

Additional observations from a re-analysis of the deposited data

How the results depend on the processing

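With no replicate of either hairpin or of shControl, each fold rests on 2 libraries, and counting intervals leave out the spread between cultures. The median log2 fold of the cytosolic enzymes stayed between 0.55 and 0.81 with shRNA 2 and between 0.08 and 0.24 with shRNA 1 over the settings tried. The cytosolic minus mitochondrial median with shRNA 2 was 0.43 under the other scalings, filters, prior count and without GARS and KARS. These settings could hardly change that difference, so its stability is no check. A scaling shifts all folds of a library alike and cancels in a difference, and the filters act mainly through the scaling. GARS and KARS lie on opposite sides of the cytosolic median with shRNA 2. The difference was 0.49 between means and 0.73 over enzymes with no exonic overlap, the last 2 added after seeing the data. Leaving out 1 hairpin at a time gave ranges of 0.10 to 0.61 for the cytosolic median, 0.18 to 0.22 for the mitochondrial median and -0.11 to 0.43 for their difference, so shRNA 2 sets its direction. The mitochondrial median was less stable. With shRNA 1 it was 0.22, with 0.35 under library totals and 0.18 as a mean. With shRNA 2 it was 0.18, with 0.14 under DESeq2's size factors, 0.38 under library totals, 0.12 without a filter, 0.21 at a mean of at least 5 CPM, 0.070 as a mean and -0.18 over the enzymes with no exonic overlap. The mean of both hairpins was 0.36 under library totals, which move the median of all genes by 0.14 with shRNA 1 and 0.20 with shRNA 2. The number of members at least 2-fold higher with both hairpins was 0, and 1 without a filter (SARS2), which also held for shRNA 1 alone, and it ran between 0 and 6 when 1 hairpin was left out. With shRNA 2 alone that number was 6, with 5 under DESeq2's size factors, where SARS was lost, 8 under library totals, where EPRS and IARS joined, and 6 without a filter, where SARS was lost and SARS2 joined. The group test found 0 members with edgeR and 1 with DESeq2's Wald test (WARS), and the edgeR adjusted p of WARS ran from 0.426 to 0.747 over its settings. The 381 values of single members recomputed are log2 folds, apart from the rank of WARS by level per length, which moved. Of these values 326 stayed within their counting interval, and 14 of the folds changed sign. No paired analysis was possible because the groups share fewer than 2 replicate numbers.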
